A study of Mus musculus with 12 samples.

Results

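Leukemic megakaryocyte-erythroid progenitors (MEP) were compared with their normal counterparts across all measured genes. MEP are the marrow progenitors from which red cells and platelets arise. The comparison used 6 of the 12 libraries of the series, 3 of each kind, and the 10163 of 24107 genes that reached 1 FPKM (fragments scaled for transcript length and for library size) in at least 3 of the 6. Control MEP were isolated from wild-type C57BL/6 mice. Leukemic MEP have the genotype Prdm16s, are labelled with the same strain and were isolated from recipient mice that had leukemia. Prdm16s is the short form of the zinc finger protein PRDM16 and lacks its PR domain. The groups therefore differed in Prdm16s, in leukemia and in the hosts being transplant recipients, and these cannot be told apart. No label names the sort markers, the construct that carried Prdm16s or separate mice for the replicates, so a p-value here weighs a difference against the spread of 3 samples a group, which may be technical.

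Red cell development is driven by GATA1 with KLF1, which switch on haem synthesis, the transferrin receptor and the membrane skeleton. GATA1 works with RUNX1 and with FLI1 and other factors of the ETS family to build megakaryocytes, which carry adhesion receptors and chemokine-filled granules into platelets. GATA2 marks earlier progenitors and is replaced by GATA1 as cells mature. PU.1 (gene Spi1) and C/EBP factors drive the neighbouring myeloid branch, whose cells fill their granules with peroxidase, proteases and lysozyme. The basophil and mast cell branch uses GATA2 too and makes IgE receptor chains and proteases of its own.

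The libraries were not equal. The values came from 6.72 to 8.77 M reads (M, 1e6) in the control libraries and from 9.71, 7.22 and 0.572 M in leukemic MEP 1, 2 and 3. For a gene of median length a single read was worth 0.0290 to 0.0452 FPKM in 5 libraries and 0.541 FPKM in leukemic MEP 3, so low levels were measured less well there. Leukemic MEP 1 and 2 had a Pearson r of 0.963 across genes with each other and of 0.822 and 0.803 with leukemic MEP 3, and the controls had 0.958 to 0.983 among themselves. The RNA Xist, made from the inactive X chromosome of female cells, was at 49.4 FPKM in leukemic MEP 1, 57.1 in leukemic MEP 2, 0 in leukemic MEP 3 and at no more than 0.0624 in the controls. The Y-linked gene Ddx3y was at 0 in leukemic MEP 1, at 0.0259 FPKM in leukemic MEP 2 and at 27.6 in leukemic MEP 3, against 10.6 to 20.7 in the controls. Both genes were chosen after their values were seen. Leukemic MEP 1 and 2 thus stood apart from the other 4 libraries in these genes, and without leukemic MEP 3 this split and the study's groups cannot be told apart. Each of 10 MEP genes, among them Gata1, Klf1, Gfi1b, Tal1, Car1 and Tfrc, was detected in all 6 libraries. Detection alone cannot check the labelled cell type, since a mixed fraction could give it too. Klf1, Epor, Gfi1b, Car1 and Tfrc were called lower and Gata2 higher in leukemic MEP. In leukemic MEP 3 Gata1 was at 37.7 FPKM, against 289 to 335 in the controls, and Epor at 4.41, against 108 to 150. Kit, the stem cell factor receptor on MEP, was at 149, 65.7 and 69.5 FPKM in control MEP and at 38.5, 21.3 and 76.1 in leukemic MEP, and the groups overlapped through leukemic MEP 3. Its change was -1.13 (limma adjusted p = 0.147, log2 scale as defined below), and without leukemic MEP 3 it fell by 1.59 ± 0.38 (adjusted p = 0.00922). Because leukemic MEP 3 stood apart, each count is given with all 6 libraries and without it.

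Prdm16 itself was read at 0.833, 0.363 and 0.471 FPKM in control MEP 1, 2 and 3 and at 15.3, 6.35 and 14.1 in leukemic MEP 1, 2 and 3. The groups did not overlap, and leukemic MEP 2 was the lowest leukemic library. The gene rose by 2.98 ± 0.38 (log2 change ± SE on the log2(FPKM + 1) scale, limma adjusted p = 0.0018) and by 2.83 ± 0.35 without leukemic MEP 3 (adjusted p = 0.000171). The values do not separate Prdm16s from other transcripts of the gene. All changes below are on this scale, where the change of a low gene comes out too small, and values of libraries are always given in the order 1, 2, 3.

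Of the 10163 genes tested, 1113 were called higher in leukemic MEP (11%) and 894 lower (8.8%) at a Benjamini-Hochberg adjusted p under 0.05, 2007 in all (19.7%). Changes of at least 1 log2 unit made up 1074 of the rises and 804 of the falls, and changes of at least 3 made up 211 and 79. Without leukemic MEP 3, 1709 genes were called higher (16.8%) and 1408 lower (13.9%). Each count of a gene list below stands beside these shares, and a count near them says nothing particular about the list. Of the 2007 genes called with all 6 libraries 2006 were called in the same direction without leukemic MEP 3, and 0 were called in the opposite one. The groups did not overlap for 4304 genes (42.3%), 2095 higher and 2209 lower in leukemic MEP. A gene under 1 FPKM in every library of a group was tested only if every library of the other group reached 1 FPKM. For such genes, Prdm16 among them, the filter set the direction and the lack of overlap, and their p-values support neither. The median change of all genes was -0.07, and -0.03 without leukemic MEP 3. The count fell to 858, 890 and 717 without control MEP 1, 2 and 3, to 1366 without leukemic MEP 1 and to 1825 without leukemic MEP 2. Of the 2007 genes 660, 403 higher and 257 lower, were called in all 6 fits that left out a library.

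The largest falls were those of red cell genes and of genes with other uses. Prss50, a serine protease-like gene, was at 163, 260.04 and 185 FPKM in control MEP and at 0.185, 0 and 4.6 in leukemic MEP. Cldn13, a claudin gene of mouse red cell precursors, was at 299, 476 and 414 and 4.78, 0.686 and 6.26. Rhd, the gene of the Rh blood group antigen, was at 422, 594 and 526 and 17.2, 4.91 and 17.9. In each of these genes every control library lay far above every leukemic library, and leukemic MEP 2 was the lowest library. Prss50 fell by 6.73 ± 0.61, Cldn13 fell by 6.56 ± 0.52 and Rhd fell by 5.33 ± 0.45 (limma adjusted p = 0.000525, 0.000381 and 0.00042). Ctse, the cathepsin E gene, was at 260.3, 262 and 269 FPKM in control MEP and at 9.68, 6.75 and 9.12 in leukemic MEP. Its libraries were almost equal within each group, and it fell by 4.81 ± 0.24, with the smallest SE among the 15 genes (adjusted p = 0.000134). The sphingosine kinase gene Sphk1 (fell by 6.35 ± 0.57), the glutamine transporter gene Slc38a5 (fell by 5.92 ± 0.38) and the hepsin protease gene Hpn (fell by 5.43 ± 0.41) likewise had every control above every leukemic library. So did Rab4a, a GTPase gene of endosome recycling (fell by 4.75 ± 0.58), the blood group antigen gene Ermap (fell by 4.68 ± 0.42), the haem-binding protein gene Hebp1 (fell by 4.62 ± 0.57) and Atp1b2, a subunit gene of the sodium-potassium pump (fell by 4.44 ± 0.26). Spon2, Sh2d4a and Tmem56, an extracellular matrix gene, an adaptor gene and a membrane protein gene, were at 18.1 to 54.5 FPKM in the controls. They were at 1.32 FPKM or below in every leukemic library.

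The largest rises were spread over several kinds of blood cell. Ppbp, a platelet chemokine gene, was at 0, 1.24 and 0.516 FPKM in control MEP and at 252, 204 and 150.1 in leukemic MEP. S100a6, a calcium-binding protein gene, was at 0.597, 0.935 and 0.389 and 112, 83.4 and 149. Alox5ap, which helps make leukotrienes, was at 2.65, 7.69 and 2.48 and 232, 219 and 362. In these 3 genes all leukemic libraries were of like height, leukemic MEP 3 included. Ppbp rose by 7.05 ± 0.36 (adjusted p = 0.000134), S100a6 by 6.11 ± 0.31 (adjusted p = 0.000134) and Alox5ap by 5.79 ± 0.40 (adjusted p = 0.000221). Tmsb4x, whose product binds actin monomers, went from 31.1, 158 and 40.03 to 4552, 4619.6 and 2886 FPKM and rose by 6.05 ± 0.59 (adjusted p = 0.00069).

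Other rises differed in size between the leukemic libraries. Fcer1a, the IgE receptor chain of mast cells and basophils, was at 0, 0 and 0.136 FPKM in control MEP and at 265, 590.2 and 18 in leukemic MEP. Gzmb, a granzyme gene, was at 0, 0 and 0.0987 and 227, 257 and 20.1. In both genes leukemic MEP 3 was the lowest leukemic library, yet above every control. They rose by 7.11 ± 1.08 and 6.7 ± 0.86 (adjusted p = 0.004 and 0.00194), and by 8.57 ± 0.35 and 7.88 ± 0.27 without leukemic MEP 3. Serpina3g, a protease inhibitor gene with close copies whose reads may be split, was at 397, 527 and 52.7 FPKM in leukemic MEP against 1.33, 6.22 and 1.8 in control MEP. The lysozyme gene Lyz2 had the opposite order, at 3.35, 13.4 and 18.2 FPKM in control MEP and 448, 581 and 12795 in leukemic MEP. Its rise of 7.14 ± 1.20 (adjusted p = 0.00614) became 5.59 ± 0.51 without leukemic MEP 3. Tyrobp, an adaptor gene of myeloid receptors, was at 2.28, 8.79 and 4.44 and 163, 127 and 1565, and Padi4, the enzyme that citrullinates histones in granulocytes, at 0.0397, 0.0497 and 0.103 and 41.1, 35.7 and 199. They rose by 5.84 ± 0.89 and 5.99 ± 0.60 (adjusted p = 0.0041 and 0.000773).

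**Figure D1:**
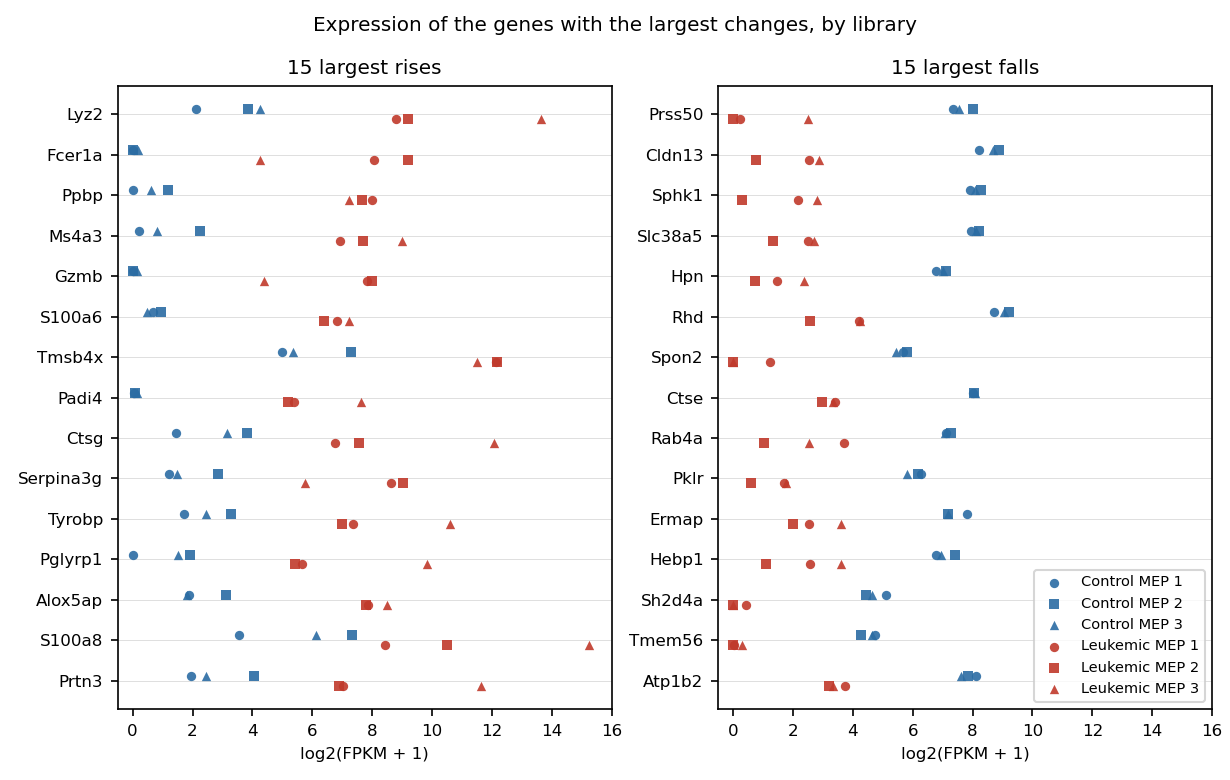
log2(FPKM + 1) (horizontal axis) of the 15 genes with the largest rises and the 15 with the largest falls in each of the 6 libraries; blue marks control MEP, red leukemic MEP, and circles, squares and triangles replicates 1, 2 and 3. The groups do not overlap in any of these genes, which the rule for showing them required; leukemic MEP 3 lies far above leukemic MEP 1 and 2 in Lyz2 (12795 FPKM), Ctsg, Prtn3 and S100a8 and below them in Fcer1a and Gzmb.

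The start sites of these genes were read for the motifs of the factors named above. RefSeq windows of 300 bases (250 before and 50 after the gene's start, GRCm38.p6) were found for 22 of the 30 genes, 13 risen and 9 fallen, and 11 held at least 1 of 6 motifs searched on both strands. The motif searched for GATA factors was AGATAA. The letters used for the other factors were CCACACCC for KLF1, GAGGAAGT for PU.1, CCGGAAGT for its ETS relatives and TTGCNNAA for C/EBP proteins. TGAGTCA was searched as the site of AP-1, the dimer of FOS and JUN proteins. The PU.1 and ETS motifs overlap in their last letters. The 5 windows shown are some of those with a motif before the start. They belong to fallen red cell genes and to risen granule or basophil genes. Capitals mark the motifs, and each window is printed in the direction of its gene. Rhd (chr4:134864286-134864585, plus strand) and Pklr (chr3:89135892-89136191, plus strand) hold AGATAA beginning 43 and 35 bases before the start. Fcer1a (chr1:173227180-173227479, minus strand) holds the C/EBP motif at 118 bases and the GATA motif, on the other strand, at 92 bases before it. Prtn3 (chr10:79879417-79879716, plus strand) holds GAGGAAGT at 95 bases before its start, and Padi4 (chr4:140774154-140774453, minus strand) the AP-1 motif, on the other strand, at 54. The GATA motif was also in the windows of the risen granule gene Pglyrp1 and of Serpina3g. Windows not shown also held the KLF1 motif (Pglyrp1), the PU.1 motif (S100a8) and the AP-1 motif (Gzmb), each before the start. The C/EBP motif was in those of Ms4a3 and the fallen gene Slc38a5.
Rhd: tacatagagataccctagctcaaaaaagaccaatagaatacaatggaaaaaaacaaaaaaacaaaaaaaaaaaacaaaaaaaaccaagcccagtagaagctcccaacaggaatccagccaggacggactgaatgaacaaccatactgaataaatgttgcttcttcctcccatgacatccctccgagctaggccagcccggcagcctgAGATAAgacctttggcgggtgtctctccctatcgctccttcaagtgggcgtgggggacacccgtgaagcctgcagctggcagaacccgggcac
Pklr: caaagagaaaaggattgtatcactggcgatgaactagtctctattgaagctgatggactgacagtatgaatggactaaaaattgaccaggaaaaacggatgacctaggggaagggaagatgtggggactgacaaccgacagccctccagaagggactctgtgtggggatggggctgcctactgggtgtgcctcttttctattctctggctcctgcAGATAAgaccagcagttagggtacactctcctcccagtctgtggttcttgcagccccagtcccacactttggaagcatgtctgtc
Fcer1a: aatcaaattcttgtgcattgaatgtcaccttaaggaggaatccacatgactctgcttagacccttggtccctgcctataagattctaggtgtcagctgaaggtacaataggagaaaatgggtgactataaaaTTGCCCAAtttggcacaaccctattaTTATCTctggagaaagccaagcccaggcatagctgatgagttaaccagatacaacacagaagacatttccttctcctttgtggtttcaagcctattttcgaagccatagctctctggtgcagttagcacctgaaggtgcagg
Prtn3: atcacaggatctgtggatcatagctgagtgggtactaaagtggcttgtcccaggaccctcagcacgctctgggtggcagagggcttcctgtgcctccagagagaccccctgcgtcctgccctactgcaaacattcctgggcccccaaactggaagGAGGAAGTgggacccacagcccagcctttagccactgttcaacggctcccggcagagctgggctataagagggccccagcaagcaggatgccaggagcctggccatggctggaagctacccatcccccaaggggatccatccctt
Padi4: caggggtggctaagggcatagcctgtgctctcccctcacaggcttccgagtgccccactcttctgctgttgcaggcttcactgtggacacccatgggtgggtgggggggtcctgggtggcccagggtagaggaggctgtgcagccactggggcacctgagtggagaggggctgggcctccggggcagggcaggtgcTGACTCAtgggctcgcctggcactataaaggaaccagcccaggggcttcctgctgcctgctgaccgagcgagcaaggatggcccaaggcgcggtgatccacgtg

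A match is a description of the letters and not a bound site. Among the 8189 tested genes with a window, AGATAA was in 6.36% of all, in 8.17% of the 893 called higher and in 8.80% of the 693 called lower. The KLF1 motif was in 3.85% of all, 5.82% of the higher and 3.32% of the lower genes, and GAGGAAGT in 3.15%, 5.15% and 3.17%. CCGGAAGT was in 9.93% of all windows, in 2.58% of those of the higher genes and in 11.8% of those of the lower. The C/EBP motif was in 8.08%, 9.63% and 7.79%, and the AP-1 motif in 3.16%, 4.70% and 3.03%. The windows also differed in base composition, with a median of 21 CpG dinucleotides in all, 16 in the higher and 21 in the lower genes. The part of this composition in the motif shares was not tested.

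Many genes of the red cell membrane and of iron handling fell in leukemic MEP, where 8.8% of all genes tested fell. Of 30 tested genes of the red cell surface and membrane skeleton 16 were called lower and 2 higher, with a median of -1.76. With leukemic MEP 3 left out the counts were 19 and 2, with a median of -1.35; the higher count was 1 and 1 without control MEP 2 and 3. Slc29a1, the nucleoside transporter of red cells, was at 253, 277 and 227 FPKM in control MEP and at 23.4, 19.2 and 25.7 in leukemic MEP. The 2 groups were tight and far apart, and the gene fell by 3.42 ± 0.24 (adjusted p = 0.000221). Against the list, Tmod1, which caps actin filaments in the membrane skeleton, was at 0.0983, 0.041 and 0 and 5.32, 3.84 and 2.55 FPKM. It rose by 2.19 ± 0.30 (adjusted p = 0.00265). The glucose transporter gene Slc2a1 was at 0.125, 0.209 and 0.109 and 4.09, 3.33 and 20.2 and rose by 2.76 ± 0.57 (adjusted p = 0.014), with adjusted p = 0.0689, 0.0527 and 0.0589 without control MEP 1, 2 and 3, in that order.

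In the list of haem synthesis and iron handling 19 of 32 genes were called lower and 0 higher (median -1.46), and 21 and 0 without leukemic MEP 3 (median -1.24). The lower count was 10, 7 and 8 without control MEP 1, 2 and 3. Steap3, the reductase that readies iron for uptake, was at 108, 95.6 and 83.1 FPKM in control MEP and at 6.3, 5.89 and 5.27 in leukemic MEP. All 3 leukemic libraries lay within a narrow band well below the controls, and it fell by 3.82 ± 0.24 (adjusted p = 0.000188). Fech, which inserts iron into haem, was at 181, 128 and 151 and 25.1, 35.2 and 24.1 and fell by 2.41 ± 0.26 (adjusted p = 0.00111). Cpox, an earlier enzyme of the pathway, fell by 2.69 ± 0.36 (adjusted p = 0.00235), from 20.8, 35.9 and 44.2 to 3.87, 5.85 and 3.05 FPKM. The transferrin receptor gene Tfrc was at 107, 64.6 and 88.2 and 19.2, 27 and 25.7 FPKM and fell by 1.8 ± 0.28 (adjusted p = 0.00453). The ferritin heavy chain gene Fth1 was at 1327, 2278 and 1869.8 and 718, 625 and 437 FPKM and fell by 1.61 ± 0.38 (adjusted p = 0.0226, and 0.087, 0.114 and 0.0511 without control MEP 2 and 3 and leukemic MEP 2, in that order).

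In the list of red cell enzymes more genes were called lower than higher. Of 24 tested, 7 were called lower and 1 higher with all 6 libraries, and 8 and 2 without leukemic MEP 3. For red cell enzymes the higher count was 0, 0 and 0 without control MEP 1, 2 and 3. The gene called higher was Xpo7, an exportin gene described below. The median was -0.32, and -0.08 without leukemic MEP 3, where scaling to equal totals or quantile normalization turned it to 0.01 or 0.09. The 7 lower genes kept their calls in all 6 fits that left out a library. Car1, the carbonic anhydrase of red cell precursors, was at 5219, 6032 and 5991 FPKM in control MEP and at 732, 684 and 301 in leukemic MEP. The controls were within a narrow range and every leukemic library was far below, and Car1 fell by 3.43 ± 0.46 (adjusted p = 0.00233). Pklr, the red cell and liver pyruvate kinase whose start window is shown above, was at 76.9, 71.9 and 55.3 and 2.21, 0.524 and 2.39 and fell by 4.74 ± 0.37 (adjusted p = 0.000348). Pkm, the pyruvate kinase of most other cells, is outside this list and was at 1.45, 3.97 and 1.24 and 89.8, 58.4 and 307 FPKM. It rose by 5.3 ± 0.60 (adjusted p = 0.00123), so the genes of these isoenzymes moved in opposite directions in all 3 leukemic libraries.

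Among 24 red cell transcription factors and cofactors 3 were called lower and 2 higher, and 5 and 6 without leukemic MEP 3, beside 19.7% and 30.7% of all genes called in either direction in these fits. The median was -0.34, and -0.17 without leukemic MEP 3. Fewer were called lower on leaving out a library, 0, 0 and 0 without control MEP 1, 2 and 3, and the higher count was 0 and 0 without control MEP 1 and 3. Gata1 was at 302, 335 and 289 FPKM in control MEP and at 242, 209.6 and 37.7 in leukemic MEP. Leukemic MEP 1 and 2 lay just below the controls and leukemic MEP 3 far below, and the change of -1.30 did not pass (adjusted p = 0.19; -0.45 and adjusted p = 0.203 without leukemic MEP 3). Klf1 was at 585, 852 and 659.97 and 278, 213 and 41.5 FPKM and fell by 2.34 ± 0.65 (adjusted p = 0.0398, and 0.113, 0.126 and 0.115 without control MEP 1, 2 and 3, in that order). Gfi1b, a repressor both lineages need, was at 442, 509 and 463 and 208, 118 and 30.3 and fell by 2.36 ± 0.62 (adjusted p = 0.0323, and 0.108, 0.102 and 0.1 without control MEP 1, 2 and 3, in that order). Lyl1, a bHLH factor of progenitors, was at 50.8, 60.5 and 44.5 and 166, 102 and 194 FPKM and rose by 1.51 ± 0.30 (adjusted p = 0.0127, and 0.0559 and 0.076 without control MEP 1 and 3, in that order).

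The globin genes Hbb-bs and Hba-a2 were read higher in leukemic MEP 1 and 2 than in every control, and not in leukemic MEP 3. Hbb-bs, an adult beta-globin gene, was at 8.39, 66.2 and 13.1 FPKM in control MEP and at 815, 1362 and 47.1 in leukemic MEP. Leukemic MEP 3 lay between control MEP 2 and the other controls. It rose by 4.18 ± 1.23 (adjusted p = 0.0472) and by 5.67 ± 0.65 without leukemic MEP 3 (adjusted p = 9.68e-05). With all 6 libraries the call was lost on leaving out any other library, with adjusted p = 0.174, 0.0577, 0.145, 0.125 and 0.106 without control MEP 1, 2 and 3 and leukemic MEP 1 and 2, in that order. The alpha-globin gene Hba-a2 was at 8.16, 49.1 and 16.8 and 168, 155 and 19.2 FPKM. It was not called with all 6 libraries (adjusted p = 0.147) and rose by 3.01 ± 0.54 without leukemic MEP 3 (adjusted p = 0.00176). Globin genes have near-identical copies, and no source used here says how reads shared between them were counted. Xpo7, an exportin needed for nuclear condensation in red cell precursors, rose by 1.31 ± 0.29 from 0.718, 0.351 and 0.548 to 1.99, 2.98 and 3.59 FPKM (adjusted p = 0.0179, and 0.0548, 0.0841 and 0.082 without control MEP 1, 2 and 3, in that order).

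Megakaryocyte and platelet genes, from transcription factors to granule cargo, were mostly called higher or not called in leukemic MEP. Of 17 tested transcription factors 9 were called higher and 0 lower (median 1.49), and 10 and 0 without leukemic MEP 3 (median 1.36); the count was 5 without control MEP 1. Fli1 was at 3.52, 4.66 and 2.55 FPKM in control MEP and at 103, 99.5 and 55.9 in leukemic MEP. All leukemic libraries were far above the controls, and Fli1 rose by 4.22 ± 0.33 (adjusted p = 0.000348). The related ETS gene Etv6 went from 7.35, 4.27 and 5.62 to 45.7, 28.1 and 44.7 FPKM and rose by 2.58 ± 0.31 (adjusted p = 0.00155). Gata2 was at 14.9, 18.8 and 12.8 and 91, 63.3 and 33.5 and rose by 1.85 ± 0.38 (adjusted p = 0.0134, and 0.0635 and 0.0686 without control MEP 1 and 3, in that order). Gata2 was thus higher and Gata1 not higher in each leukemic library.

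Platelet adhesion receptors were tested for 18 of 23 listed genes, and the others did not reach 1 FPKM in 3 libraries. A gene silent in control MEP could pass that filter only through the leukemic libraries, so counts in such lists describe the tested genes and support nothing beyond them. Of those tested 12 were called higher and 2 lower (median 2.93), and 15 and 2 without leukemic MEP 3 (median 2.74). Selp, the P-selectin gene, was at 0.187, 0 and 0 FPKM in control MEP and at 23, 11.7 and 16.6 in leukemic MEP. Itgb3, the beta subunit of the fibrinogen receptor, was at 0.255, 0.388 and 0 and 9.84, 10.7 and 7.1. F11r, a junctional adhesion molecule, was at 0.173, 0.542 and 0 and 8.32, 5.08 and 9.44. In each, controls were near 0 and the leukemic libraries were of like height. The rises were 4.05 ± 0.32, 3.07 ± 0.30 and 2.78 ± 0.33 (adjusted p = 0.000381, 0.000679 and 0.00145).

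The falls in the adhesion list were those of Cd82 and Cd36. Cd82, a tetraspanin gene, was at 155, 194 and 146 FPKM in control MEP and at 9.17, 4.83 and 31.4 in leukemic MEP, and fell by 3.73 ± 0.56 (adjusted p = 0.0039). The scavenger receptor gene Cd36, which red cell precursors also express, was at 4.81, 2.88 and 3.52 and 0.823, 0.405 and 0 and fell by 1.77 ± 0.33 (adjusted p = 0.00917). Both fell in all 3 leukemic libraries, against the direction of the list.

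Of the platelet granule cargo and secretion genes 18 of 26 were tested. 11 of them were called higher and 0 lower (median 2.23), and 13 and 0 without leukemic MEP 3 (median 1.89). The count was 6 and 5 without control MEP 1 and 3. Rab27a, which docks granules for release, was at 5.09, 4.85 and 5.16 FPKM in control MEP and at 46.4, 53.9 and 104 in leukemic MEP. Its controls were almost equal and leukemic MEP 3 was the highest, and it rose by 3.43 ± 0.34 (adjusted p = 0.000705). Clu, the clusterin gene of alpha granules, was at 0, 0.817 and 0 and 6.5, 6.35 and 10.2 and rose by 2.8 ± 0.35 (adjusted p = 0.0018). Pf4, platelet factor 4, was at 1.83, 102 and 7.6 and 5067, 4225 and 82.6 FPKM. Leukemic MEP 1 and 2 were far above the controls, and leukemic MEP 3 was below control MEP 2. Pf4 rose by 6.48 ± 1.74 (adjusted p = 0.0354, and 0.144, 0.113, 0.0986 and 0.0826 without control MEP 1 and 3 and leukemic MEP 1 and 2, in that order) and by 8.41 ± 1.07 without leukemic MEP 3 (adjusted p = 0.000197).

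Platelet signalling and proplatelet genes were tested for 25 of 33, with 13 called higher and 0 lower (median 1.90). Without leukemic MEP 3 the counts were 20 and 0 (median 2.59), and the count was 8 without control MEP 1. Plek, the pleckstrin gene, was at 0.398, 1.84 and 0.129 FPKM in control MEP and at 52.7, 54.8 and 17.5 in leukemic MEP. Tbxas1, thromboxane synthase, was at 0.546, 0.897 and 0.111 and 27, 28.1 and 13.3. Both were lower in leukemic MEP 3 than in leukemic MEP 1 and 2 and above every control. They rose by 4.53 ± 0.53 and 3.93 ± 0.38 (adjusted p = 0.00134 and 0.000679). Rasgrp2, the calcium-responsive activator of platelet integrins, was at 0.852, 2.53 and 1.06 and 38.5, 23.7 and 105 FPKM, highest in leukemic MEP 3, and rose by 4.3 ± 0.54 (adjusted p = 0.00174).

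Stem and early progenitor genes were tested for 22 of 31, with 12 called higher and 1 lower (median 1.27), and 15 and 2 without leukemic MEP 3 (median 1.46). The higher count was 4, 4, 4 and 5 without control MEP 1, 2 and 3 and leukemic MEP 1, and the lower count was 0, 0 and 2 without control MEP 2 and 3 and leukemic MEP 1. Myct1, a gene of stem cells and endothelium, was at 0.309, 0.726 and 0.201 FPKM in control MEP and at 26.3, 20.2 and 12.7 in leukemic MEP. Angpt1, the TIE2 ligand angiopoietin 1, was at 4.08, 1.89 and 1.38 and 61.5, 71.2 and 18.8. Cd48, a SLAM family antigen, was at 32.7, 46.6 and 38.8 and 199, 264 and 122. Leukemic MEP 3 was the lowest leukemic library in all 3 genes and above every control. They rose by 3.84 ± 0.35, 3.77 ± 0.53 and 2.22 ± 0.33 (adjusted p = 0.000519, 0.00284 and 0.00371). Mllt3, which maintains stem cells, fell by 1.62 ± 0.31 from 8.41, 8.86 and 8.84 to 2.81, 2.67 and 1.25 FPKM (adjusted p = 0.0105, and 0.0512 and 0.0599 without control MEP 2 and 3, in that order).

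**Figure D2:**
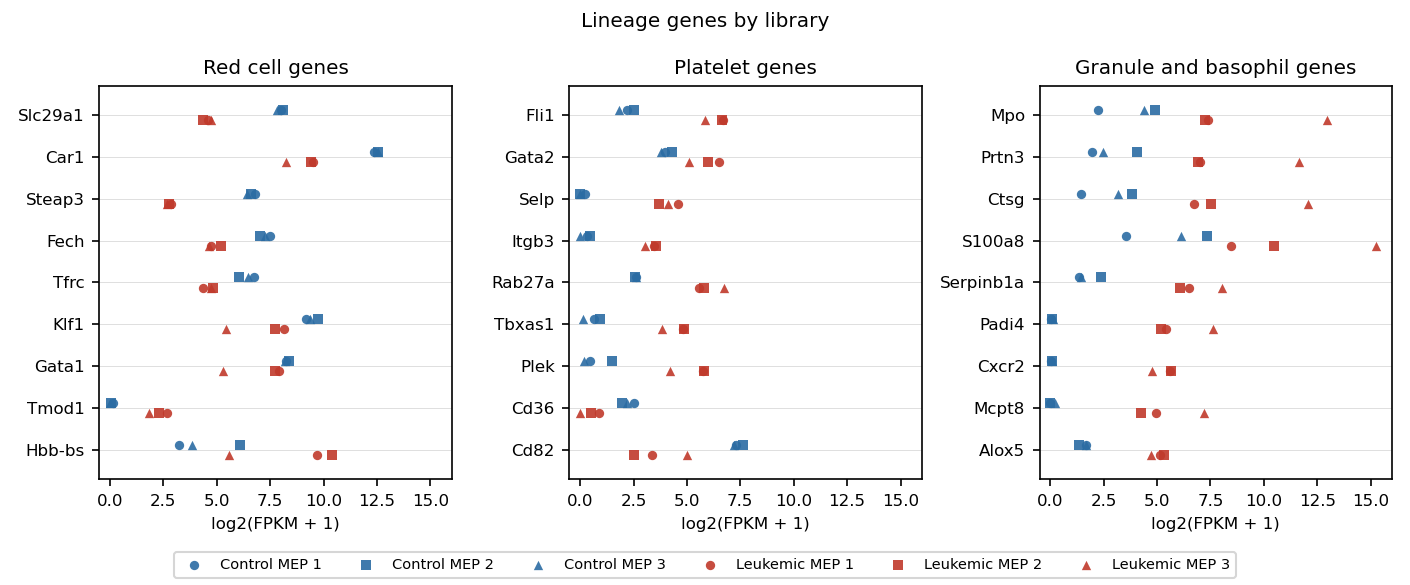
log2(FPKM + 1) (horizontal axis) of 9 red cell, 9 platelet and 9 granule and basophil genes in each of the 6 libraries; blue marks control MEP, red leukemic MEP, and circles, squares and triangles replicates 1, 2 and 3. Red cell genes other than Tmod1 and Hbb-bs lie lower in leukemic MEP, platelet genes other than Cd36 and Cd82 lie higher, and the granule genes Mpo, Prtn3, Ctsg and S100a8 are highest in leukemic MEP 3; Gata1 was not called.

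Many granule genes of the myeloid branch rose in leukemic MEP, and their summed level was by far the highest in leukemic MEP 3. All 16 primary granule genes were tested, and 10 were called higher and 0 lower (median 4.44). With leukemic MEP 3 left out it was 13 and 1 (median 3.10), and the count was 4, 6 and 4 without control MEP 1, 2 and 3. The summed level of these 16 markers was 51.5 to 246 FPKM in control MEP and 1330.1, 1414 and 27142 in leukemic MEP. In leukemic MEP 1, 2 and 3, 13, 15 and 16 of them lay above every control, and Serpinb1a among them went from 1.51, 4.14 and 1.75 to 88.2, 66.7 and 265 FPKM. This gene, an inhibitor of neutrophil proteases, rose by 5.16 ± 0.53 (adjusted p = 0.000833). Of all genes tested 20.6% lay above every control in all 3 leukemic libraries at once. The share of all genes above every control in a single leukemic library was not counted. Nkg7, found in cytotoxic and granulocytic granules, was at 16.2, 88.3 and 26.6 and 538, 381 and 593, of like height in the leukemic libraries, and rose by 3.83 ± 0.56 (adjusted p = 0.00338). The protease genes Prtn3 and Ctsg were at 129.5, 119 and 3202 and at 106, 186 and 4288 FPKM in leukemic MEP against 2.83, 15.5 and 4.49 and 1.72, 13.1 and 7.98 in control MEP. Prtn3 rose by 5.71 ± 1.20 (adjusted p = 0.0147, and 0.0814 and 0.059 without control MEP 1 and 3, in that order) and Ctsg by 5.98 ± 1.28 (adjusted p = 0.0159, and 0.085 and 0.0529 without control MEP 1 and 3, in that order).

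Of the later granule and neutrophil genes 19 of 29 were tested, and 11 were called higher and 0 lower (median 4.54). Without leukemic MEP 3 it was 14 and 0 (median 2.47), and the count was 4 and 5 without control MEP 1 and 3. Their summed level was 126 to 552 FPKM in control MEP and 1704, 2966 and 99297 in leukemic MEP. In leukemic MEP 1, 2 and 3, 21, 25 and 29 of 29 lay above every control. For these counts too the share of all genes in a single library was not counted. The chemokine receptor gene Cxcr2 did not follow the sum. It was at 0.0353, 0.0442 and 0.0459 FPKM in control MEP and at 47.1, 48.8 and 26.4 in leukemic MEP, lowest in leukemic MEP 3, and rose by 5.27 ± 0.32 (adjusted p = 0.000188). Anxa1, which limits neutrophil migration, was at 5.46, 8.0 and 6.31 and 118, 108 and 504 and rose by 4.64 ± 0.55 (adjusted p = 0.00147). S100a8, a calprotectin chain, was at 10.7, 159.9 and 69.1 and 348, 1444 and 38572 FPKM, and control MEP 2 was its highest control. It rose by 5.72 ± 1.63 (adjusted p = 0.0428, and 0.163, 0.0718, 0.106 and 0.0597 without control MEP 1, 2 and 3 and leukemic MEP 2, in that order). Whether cells of the granulocyte branch in the sorted fraction had a part in these values was not tested. In bulk samples more cells of a type and more RNA per cell cannot be told apart, and the same holds for fewer cells and less RNA.

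The summed level of basophil and mast cell genes was of like height in the 3 leukemic libraries, but its make-up was not. Tested were 19 of 32, with 15 called higher and 1 lower (median 3.28), and 16 and 1 without leukemic MEP 3 (median 2.73). The sum was 38.4 to 81.8 FPKM in control MEP and 1309, 1525 and 1395 in leukemic MEP. Of the leukemic libraries, leukemic MEP 3 was the lowest in Fcer1a and Gzmb, as given above, and the highest in Mcpt8 and Ccl9. The mast cell protease genes Tpsab1, Tpsb2, Cma1 and Mcpt4 were listed at 0 in all 6 libraries, whereas Mcpt8, the basophil protease, was at 0, 0 and 0.151 and 30.2, 17.9 and 145. Mcpt8 rose by 5.4 ± 0.67 (adjusted p = 0.00174). Alox5, which starts leukotriene synthesis, was at 2.16, 1.57 and 2.2 FPKM in control MEP and at 34.1, 39.1 and 25.2 in leukemic MEP. The chemokine gene Ccl9 was at 0.178, 0.537 and 0.186 and 31.4, 35.3 and 122. Both were clear of the controls in every leukemic library, and they rose by 3.49 ± 0.29 and 5.35 ± 0.51 (adjusted p = 0.000381 and 0.000622). Il1rl1, the IL-33 receptor of mast cells, went the other way, from 16, 7.24 and 8.92 to 0.0253, 0 and 0.708 FPKM, and fell by 3.21 ± 0.38 (adjusted p = 0.00145).

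Monocyte genes were tested for 9 of 27, with 3 called higher and 1 lower (median 1.30), and 4 and 1 without leukemic MEP 3 (median 0.04, and -0.32 after quantile normalization). Their sum was 69.3 to 111 FPKM in control MEP and 115, 93.6 and 1968 in leukemic MEP, so only leukemic MEP 3 stood well above the controls. The galectin gene Lgals3 was at 0.485, 0.347 and 0.631 and 29.4, 31 and 159.97 FPKM and rose by 5.18 ± 0.61 (adjusted p = 0.0014). The lysosomal gene Cd68 was at 1.89, 3.67 and 2.24 and 26.9, 23.9 and 98 and rose by 3.54 ± 0.53 (adjusted p = 0.00375). Ifi30, a lysosomal thiol reductase, fell by 3.25 ± 0.49 from 59.5, 86.7 and 67.9 to 10.6, 2.24 and 10.2 FPKM (adjusted p = 0.00396). Among 12 tested of 26 myeloid transcription factors 4 were called higher and 0 lower, and 7 and 0 without leukemic MEP 3. Spi1, the PU.1 gene, was at 3.69, 5.36 and 2.11 FPKM in control MEP and 83.3, 42.6 and 298 in leukemic MEP and rose by 4.51 ± 0.65 (adjusted p = 0.00316). Klf6 rose by 3.04 ± 0.41 from 2.75, 2.17 and 3.45 to 43.5, 15.7 and 38.5 FPKM (adjusted p = 0.0024). Id1, an inhibitor of bHLH factors, rose by 3.7 ± 0.53 from 0.115, 0 and 0.15 to 6.15, 10.9 and 32.3 (adjusted p = 0.00299).

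Most genes of other lineages were below the filter, which also leaves out genes that are high in leukemic MEP 3 alone. B lymphoid genes were tested for 5 of 20, T and NK cell genes for 3 of 23, stromal and endothelial genes for 2 of 15, eosinophil genes for 4 of 12 and dendritic cell and MHC class II genes for 10 of 18. The B cell genes Pax5 and Fcrla, the T cell genes Cd3g and Cd8a and the plasmacytoid dendritic cell gene Siglech were listed at 0 in all 6 libraries. Called higher and lower were 1 and 1 B lymphoid, 2 and 0 T and NK cell and 2 and 0 stromal and endothelial genes. For eosinophil genes it was 0 and 0, and for dendritic cell and MHC class II genes 1 and 2. Without leukemic MEP 3 it was 1 and 2, 3 and 0, 2 and 0, 2 and 0, and 1 and 3, in that order. Blnk was the B lymphoid gene called lower, and H2-DMb1 the dendritic list gene called higher. Cd79b, a B cell receptor chain, was at 75.9, 28.7 and 31.3 FPKM in leukemic MEP against 0.959, 2.51 and 1.93 in control MEP. It rose by 3.95 ± 0.43 (adjusted p = 0.00108). Zbtb46, a factor of conventional dendritic cells and of red cell precursors, was at 12, 6.65 and 8.22 in control MEP and 0.38, 0.424 and 0 in leukemic MEP and fell by 2.95 ± 0.32 (adjusted p = 0.00108). The endothelial and stem cell receptor gene Tie1 was at 0.101, 0.222 and 0.0329 and 5.59, 2.39 and 9.86 FPKM and rose by 2.48 ± 0.43 (adjusted p = 0.00662).

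Among cell cycle genes a cyclin gene of the step into S phase fell and genes of CDK inhibitors rose. Of 26 tested genes of G1 cyclins, CDK inhibitors and E2F factors 7 were called higher and 2 lower, and 8 and 3 without leukemic MEP 3; the higher count was 3, 4, 4 and 4 without control MEP 1, 2 and 3 and leukemic MEP 1, and the lower count was 1, 1, 1 and 1 without control MEP 1, 2 and 3 and leukemic MEP 1. Ccne1, cyclin E1, was at 176, 191 and 187 FPKM in control MEP and at 17.8, 19.3 and 10.3 in leukemic MEP. Cdkn2d, the CDK4 and CDK6 inhibitor p19, was at 12.3, 20.8 and 11.2 and 169, 158 and 100.05, and its relative Cdkn2c at 1.19, 1.85 and 3.04 and 18.1, 39.5 and 15.6. The groups were far apart in each of the 3, the cyclin low and the inhibitors high in leukemic MEP. Ccne1 fell by 3.51 ± 0.29, and Cdkn2d and Cdkn2c rose by 3.2 ± 0.33 and 3.0 ± 0.42 (adjusted p = 0.000381, 0.000809 and 0.00272). Of 34 DNA replication genes 10 were called lower and 0 higher (median -0.81), and 17 and 0 without leukemic MEP 3 (median -0.79). The lower count was 2, 3, 2 and 4 without control MEP 1, 2 and 3 and leukemic MEP 1. Cdc6, which licenses origins, fell by 1.83 ± 0.29 from 68.1, 47.4 and 48.3 to 10.8, 17.4 and 15.9 FPKM (adjusted p = 0.0045), and Gins2, of the replicative helicase, fell by 1.4 ± 0.24 from 83.2, 109 and 99.3 to 32.2, 38.8 and 37.1 (adjusted p = 0.0062). Of 25 mitosis genes 1 was called lower and 0 higher, with a median of -0.21, and 2 and 0 without leukemic MEP 3 (lower count 0, 0, 0, 0 and 2 without control MEP 1, 2 and 3 and leukemic MEP 1 and 2). The called gene was Cenpa, the centromeric histone, which was at 251, 357 and 291 and 137, 162 and 99.5 FPKM (adjusted p = 0.0271, and 0.0566, 0.107, 0.111 and 0.0725 without control MEP 1, 2 and 3 and leukemic MEP 1, in that order).

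Enzymes that feed growth were lower in part. Of 28 tested nucleotide, serine and one-carbon enzymes 11 were called lower and 1 higher (median -0.80), and 16 and 1 without leukemic MEP 3 (median -0.88). Fewer were called lower on leaving out a library, 3, 3, 2 and 5 without control MEP 1, 2 and 3 and leukemic MEP 1. Mthfd1, a folate enzyme, was at 324, 164 and 169.7 FPKM in control MEP and at 29.3, 21.2 and 42.3 in leukemic MEP. Control MEP 1 was the highest library and all leukemic libraries were below the controls, and Mthfd1 fell by 2.77 ± 0.37 (adjusted p = 0.00222). Adssl1, the muscle form of adenylosuccinate synthase, rose by 3.33 ± 0.62 from 6.0, 8.17 and 3.38 to 48.5, 30.7 and 183 FPKM (adjusted p = 0.00907, and 0.0532 without control MEP 1). Among 20 tested nutrient transporters 7 were called lower and 2 higher, and 9 and 3 without leukemic MEP 3; the lower count was 4 without control MEP 2, and the higher count 1, 1 and 1 without control MEP 2 and 3 and leukemic MEP 2. Slc25a21, a mitochondrial carrier, was at 40.8, 35.1 and 38 FPKM in control MEP and at 1.09, 1.39 and 1.07 in leukemic MEP and fell by 4.16 ± 0.26 (adjusted p = 0.000188). Slc7a6, a transporter of basic amino acids, was at 0.718, 1.75 and 0.77 and 21.4, 14.7 and 14.2 and rose by 3.11 ± 0.33 (adjusted p = 0.000919).

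Genes of mitochondria and ribosomes were called lower or not called with all 6 libraries. Of 32 oxidative phosphorylation and citrate cycle genes 9 were called lower and 0 higher (median -0.91), and 14 and 1 without leukemic MEP 3 (median -0.68). The lower count was 4, 1, 0, 3 and 5 without control MEP 1, 2 and 3 and leukemic MEP 1 and 2. Fh1, fumarase, was at 178, 179 and 169.9 FPKM in control MEP and at 66.6, 89.3 and 67.7 in leukemic MEP (fell by 1.24 ± 0.24, adjusted p = 0.0113, and 0.0527 and 0.0665 without control MEP 2 and 3, in that order). Of 77 mitochondrial ribosomal protein genes 18 were called lower and 0 higher (median -0.83), and 21 and 0 without leukemic MEP 3 (median -0.50). Fewer were called lower on leaving out a library, 3, 1, 1 and 8 without control MEP 1, 2 and 3 and leukemic MEP 1. Mrps22, of the small subunit, fell by 1.46 ± 0.25 from 40.3, 48.4 and 48 to 16.2, 18.6 and 13.4 FPKM (adjusted p = 0.0062). Of 81 cytosolic ribosomal protein genes 1 was called lower with all 6 libraries and 8 without leukemic MEP 3, with medians of -0.32 and -0.27 (lower count 0, 0 and 0 without control MEP 1, 2 and 3). Rpl26 was that gene, at 11.1, 25.8 and 22.6 and 7.11, 8.79 and 3.08 FPKM (adjusted p = 0.045, and 0.0547, 0.162, 0.163 and 0.0804 without control MEP 1, 2 and 3 and leukemic MEP 1, in that order). The counts of the cytosolic list are under the shares of all genes called lower. Those were 8.8%, and 13.9% without leukemic MEP 3.

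Of 28 ribosome biogenesis factors 17 were called lower and 0 higher (median -1.12), and 22 and 0 without leukemic MEP 3 (median -1.01). The lower count was 3, 4, 1 and 8 without control MEP 1, 2 and 3 and leukemic MEP 1. Nolc1, a nucleolar chaperone, was at 113, 66.6 and 62.7 FPKM in control MEP and at 29.8, 23.5 and 29.7 in leukemic MEP. Its controls were uneven and its leukemic values even and lower, and it fell by 1.47 ± 0.30 (adjusted p = 0.0126). Of 27 glycolysis and pentose phosphate genes 4 were called higher and 3 lower, and 5 and 6 without leukemic MEP 3. The higher count was 2 and 2 without control MEP 2 and 3. Pfkm, the muscle form of phosphofructokinase, fell by 2.2 ± 0.27 from 75.5, 52.3 and 52.7 to 14.3, 10.3 and 12.1 FPKM (adjusted p = 0.00158). The squalene epoxidase gene Sqle, of cholesterol synthesis, fell by 1.67 ± 0.26 from 39.7, 33.5 and 32.8 to 11.7, 11.9 and 7.92 (adjusted p = 0.00482). In that list 3 of 27 genes were called lower (1, 1, 1 and 1 without control MEP 1, 2 and 3 and leukemic MEP 2) and 2 higher (0, 0, 0, 1 and 1 without control MEP 1, 2 and 3 and leukemic MEP 1 and 2), and 5 and 2 without leukemic MEP 3. Beside the glycolysis and cholesterol counts, 11% of all genes tested were called higher and 8.8% lower. Without leukemic MEP 3 these shares were 16.8% and 13.9%. The MYC antagonist gene Mxd3 rose by 2.25 ± 0.29 from 2.31, 3.62 and 3.55 to 20.1, 15.4 and 20.6 FPKM (adjusted p = 0.00195). Mycn, a MYC relative, was at 1.1, 2.07 and 0.154 and 107, 74.9 and 3.69 and rose by 4.11 ± 1.07 (adjusted p = 0.032, and 0.113, 0.0749, 0.111, 0.0871 and 0.0762 without control MEP 1, 2 and 3 and leukemic MEP 1 and 2, in that order).

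**Figure D3:**
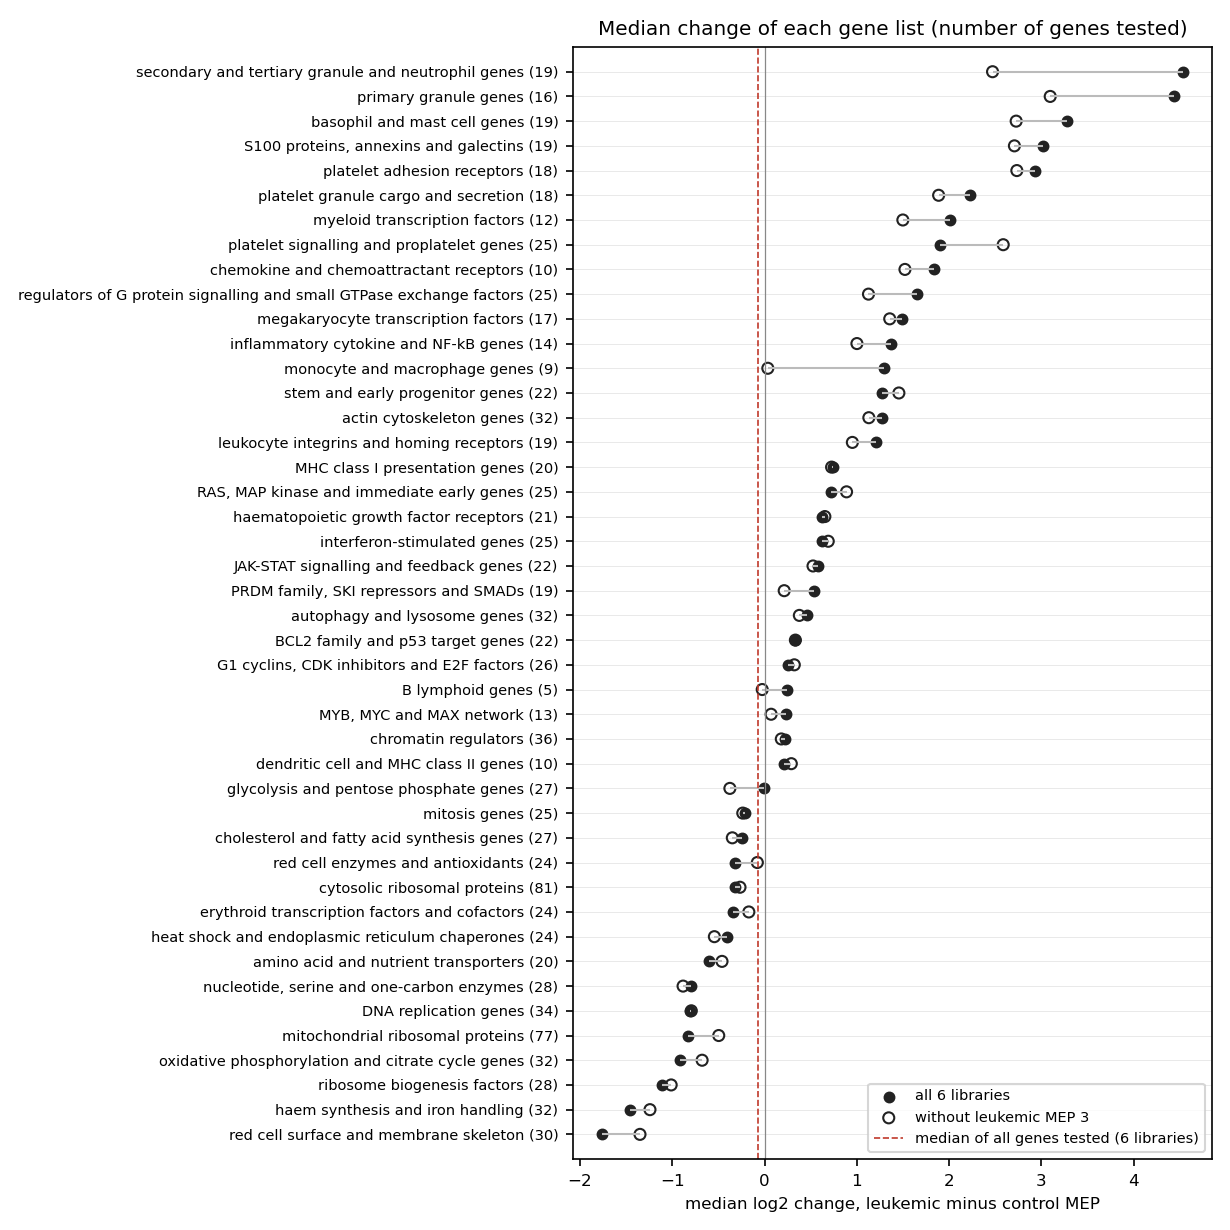
Median log2 change, leukemic minus control MEP (horizontal axis), of the tested genes in each list with at least 5 of them, with the number tested in brackets; filled circles are the fit of all 6 libraries and open circles the fit without leukemic MEP 3. The dashed line marks the median of all genes tested (-0.07). Red cell surface genes (-1.76) and haem genes (-1.46) are the lowest, and the granule lists (4.54 and 4.44) are the highest and move most when leukemic MEP 3 is left out.

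A part of the genes of the cytoskeleton and of cell movement rose in leukemic MEP. All 32 listed actin cytoskeleton genes were tested, and 18 were called higher and 1 lower (median 1.27), with 19 and 2 without leukemic MEP 3. Called higher were 10, 11, 9 and 11 without control MEP 1, 2 and 3 and leukemic MEP 1. Coro1a, the leukocyte coronin, was at 4.55, 14.9 and 4.68 FPKM in control MEP and at 318, 189 and 681 in leukemic MEP and rose by 5.45 ± 0.56 (adjusted p = 0.000807). Lmna, the nuclear lamin A gene, was at 42.3, 57.2 and 45.5 and 4.25, 2.47 and 5.48 and was the gene called lower, and fell by 3.32 ± 0.31 (adjusted p = 0.000603). In all leukemic libraries Coro1a was far above and Lmna far below the controls.

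Of 19 tested S100, annexin and galectin genes 12 were called higher and 1 lower (median 3.02), and 14 and 1 without leukemic MEP 3. The higher count was 7 and 7 without control MEP 1 and 3, and the lower count was 0, 0, 0 and 0 without control MEP 1, 2 and 3 and leukemic MEP 2. Anxa5, the annexin that binds phosphatidylserine, was at 19.8, 21.7 and 19.2 FPKM in control MEP and at 263, 333 and 171 in leukemic MEP and rose by 3.54 ± 0.29 (adjusted p = 0.000381). The exception was Lgals9, galectin 9, which fell by 1.65 ± 0.44 from 1189.7, 1394 and 1245 to 612, 508 and 212 FPKM (adjusted p = 0.0346, and 0.0937, 0.11, 0.124 and 0.0509 without control MEP 1, 2 and 3 and leukemic MEP 2, in that order). Of 19 tested leukocyte integrins and homing receptors 7 were called higher (2, 4 and 2 without control MEP 1, 2 and 3) and 0 lower, and 11 and 2 without leukemic MEP 3. The tetraspanin gene Cd53 rose by 4.82 ± 0.61 from 0.575, 1.68 and 1.5 to 37.3, 33.8 and 178 FPKM (adjusted p = 0.00186).

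Receptors and their signalling genes were higher in part. Of 10 tested chemokine and chemoattractant receptors of 24 listed, 6 were called higher and 0 lower, and 7 and 0 without leukemic MEP 3. The sphingosine-1-phosphate receptor gene S1pr2 was at 1.41, 1.48 and 1.34 FPKM in control MEP and at 8.58, 6.48 and 13.1 in leukemic MEP and rose by 2.06 ± 0.32 (adjusted p = 0.00448). Among 21 tested growth factor receptors 7 were called higher and 3 lower, and 9 and 6 without leukemic MEP 3; the higher count was 1 and 3 without control MEP 1 and 3, and the lower count 1, 1 and 1 without control MEP 1, 2 and 3. The insulin-like growth factor receptor gene Igf1r was at 5.94, 4.95 and 6.04 and 23, 26 and 15.2 FPKM and rose by 1.73 ± 0.29 (adjusted p = 0.00639). Epor, the erythropoietin receptor, was at 109, 150.5 and 108 and 46.2, 37.4 and 4.41 and fell by 2.51 ± 0.74 (adjusted p = 0.0468, and 0.135, 0.141 and 0.119 without control MEP 1, 2 and 3, in that order). Of 22 tested JAK-STAT genes 8 were called higher (4, 5 and 4 without control MEP 1, 2 and 3) and 0 lower, with 9 and 0 without leukemic MEP 3. Stat3 rose by 2.5 ± 0.31 from 10.7, 7.38 and 6.92 to 47, 39.6 and 71.5 FPKM (adjusted p = 0.0017) and the kinase gene Pim1 by 3.15 ± 0.39 from 1.0, 2.66 and 0.921 to 20.4, 14.2 and 29.4 (adjusted p = 0.00168).

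Of 25 tested regulators of G protein signalling and exchange factors of small GTPases 12 were called higher and 2 lower (median 1.65), and 14 and 2 without leukemic MEP 3. The higher count was 5, 6 and 6 without control MEP 1, 2 and 3, and the lower count was 1, 0, 0, 1 and 1 without control MEP 1, 2 and 3 and leukemic MEP 1 and 2. Vav3, an exchange factor gene of blood cells, was at 0, 0.0744 and 0.129 FPKM in control MEP and at 2.95, 2.96 and 5.25 in leukemic MEP. It was above the controls in every leukemic library and rose by 2.11 ± 0.30 (adjusted p = 0.00277). Rgs10 fell by 1.96 ± 0.42 from 55.7, 98.9 and 93.9 to 17.9, 12.1 and 35.8 FPKM (adjusted p = 0.0155, and 0.0684 and 0.0745 without control MEP 2 and 3, in that order).

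More inflammatory and interferon genes were called higher than lower. Of 14 tested inflammatory and NF-kB genes of 27 listed, 7 were called higher (4 and 4 without control MEP 1 and 3) and 1 lower (0, 0, 0 and 0 without control MEP 2 and 3 and leukemic MEP 1 and 2), and 7 and 1 without leukemic MEP 3. Casp1, the inflammasome protease, was at 4.4, 2.93 and 3.88 FPKM in control MEP and at 42.7, 33.6 and 40.9 in leukemic MEP and rose by 3.09 ± 0.27 (adjusted p = 0.000446). The NF-kB subunit gene Rel was listed at 0 in each control library and was at 4.03, 2.56 and 9.72 FPKM in leukemic MEP (adjusted p = 0.00547, with the direction set by the filter). Of 25 interferon-stimulated genes 6 were called higher (1, 2, 1 and 3 without control MEP 1, 2 and 3 and leukemic MEP 1) and 2 lower (1, 1, 1, 1 and 1 without control MEP 1, 2 and 3 and leukemic MEP 1 and 2), with 9 and 3 without leukemic MEP 3. Beside the interferon counts, 11% of all genes tested were called higher and 8.8% lower, and 16.8% and 13.9% without leukemic MEP 3. Ifitm3, whose family members are close copies, rose by 2.89 ± 0.40 from 55.3, 148 and 95.7 to 778, 802 and 529.7 FPKM (adjusted p = 0.0026). Isg20, an exonuclease gene, fell by 2.33 ± 0.40 from 51.7, 96.3 and 75.1 to 21.2, 15.4 and 7.44 (adjusted p = 0.00678). Of 20 MHC class I presentation genes 6 were called higher (2, 2 and 2 without control MEP 1 and 3 and leukemic MEP 1) and 0 lower, with the same counts without leukemic MEP 3. H2-M3 rose by 1.69 ± 0.25 from 7.08, 8.4 and 8.33 to 29.1, 23.4 and 31.7 FPKM (adjusted p = 0.00391).

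Stress and death genes were mixed. Of 24 tested chaperones 6 were called lower (2, 2, 1 and 1 without control MEP 1, 2 and 3 and leukemic MEP 1) and 1 higher, and 7 and 1 without leukemic MEP 3. The mitochondrial chaperone gene Hspd1 fell by 1.94 ± 0.29 from 318, 224 and 249 to 63.3, 90.03 and 53.1 FPKM (adjusted p = 0.0039), whereas Dnajb9, of the endoplasmic reticulum, rose by 1.61 ± 0.24 from 11.4, 12.3 and 13.1 to 38.4, 35 and 45.8 (adjusted p = 0.00375). Of 22 tested BCL2 family and p53 target genes 6 were called higher (2, 3 and 3 without control MEP 1, 2 and 3) and 3 lower (1, 1, 0 and 1 without control MEP 1, 2 and 3 and leukemic MEP 2), and 8 and 3 without leukemic MEP 3. The BH3-only gene Bbc3 was at 0, 0.272 and 0.283 FPKM in control MEP and at 4.36, 2.11 and 4.24 in leukemic MEP and rose by 1.91 ± 0.32 (adjusted p = 0.00594). Its relative Pmaip1 was listed at 0 in each control library and was at 2.71, 2.77 and 1.26 FPKM in leukemic MEP (adjusted p = 0.00777, with the direction set by the filter). Of 36 chromatin regulators 3 were called higher (0, 0, 0 and 0 without control MEP 1, 2 and 3 and leukemic MEP 1) and 0 lower, and 4 and 3 without leukemic MEP 3. These counts are under the shares of all genes tested. Those were 11% higher and 8.8% lower, and 16.8% and 13.9% without leukemic MEP 3. Of 19 tested genes of PRDM proteins, SKI repressors and SMADs 4 were called higher (2 and 2 without control MEP 1 and 3) and 0 lower, and 7 and 0 without leukemic MEP 3. Apart from Prdm16, Smad1, a transducer of BMP signals, rose by 1.76 ± 0.28 from 0.0629, 0.131 and 0.136 to 3.51, 1.98 and 2.94 FPKM (adjusted p = 0.0047).

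Some called genes were neighbours in the genome. Runs of at least 3 tested genes, adjacent after untested genes were skipped and all called in the same direction with a change of at least 1, numbered 39 higher (140 genes) and 12 lower (40 genes). With leukemic MEP 3 left out there were 63 higher runs (238 genes) and 21 lower (71 genes). Positions are those of RefSeq on GRCm38.p6. The longest higher run held AW112010 and 6 Ms4a genes on chromosome 19 from 11047612 to 11640851, a family of 4-span membrane proteins with close copies. Ms4a3, a gene of granulocyte and monocyte precursors, was at 0.171, 3.72 and 0.743 FPKM in control MEP and at 120.03, 205 and 510.02 in leukemic MEP. Ms4a6b was at 0.255, 0 and 0.248 and 18.2, 13.1 and 59.5, and Ms4a6d was listed at 0 in each control and was at 4.13, 2.77 and 9.77. Ms4a3 rose by 6.78 ± 0.64 and Ms4a6b by 4.45 ± 0.52 (adjusted p = 0.000603 and 0.0014). Ms4a2, the beta chain of the IgE receptor, rose by 2.04 ± 0.46 from 0.191, 0.143 and 0 to 4.72, 1.17 and 6.54 FPKM (adjusted p = 0.0191, and 0.0741, 0.0684, 0.0811 and 0.0584 without control MEP 1, 2 and 3 and leukemic MEP 1, in that order).

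A run on chromosome 6 from 125232620 to 125686679 joined the tumour necrosis factor receptor genes Cd27, Ltbr and Tnfrsf1a with Cd9 and Vwf. Cd9, a tetraspanin of platelets and stem cells, was at 12.1, 30.7 and 14.6 FPKM in control MEP and at 597, 687 and 159 in leukemic MEP. Vwf, von Willebrand factor, was at 1.16, 0.953 and 0.454 and 12.1, 8.19 and 4.96. Both were lowest in leukemic MEP 3 among the leukemic libraries, and they rose by 4.44 ± 0.59 and 2.29 ± 0.37 (adjusted p = 0.00215 and 0.00499). Ltbr, the lymphotoxin receptor, was highest in leukemic MEP 3, at 2.46, 2.51 and 0.534 and 13.7, 10.6 and 40.02, and rose by 2.85 ± 0.54 (adjusted p = 0.0101). The neighbours in this run thus did not share the order of the leukemic libraries.

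The lectin receptor genes Clec12a, Clec1b and Clec7a lay with 2310001H17Rik in a run on chromosome 6 from 129232623 to 129472785. Clec1b, the CLEC2 receptor of platelets, was listed at 0 in each control and was at 45.6, 23 and 5.72 FPKM in leukemic MEP (adjusted p = 0.00346, with the direction set by the filter). Clec12a, of myeloid cells, was at 0.676, 2.18 and 2.07 and 18.1, 37.1 and 831 and rose by 5.06 ± 1.21 (adjusted p = 0.0239, and 0.108, 0.0709 and 0.0739 without control MEP 1, 2 and 3, in that order). Leukemic MEP 3 was thus the lowest leukemic library in the platelet gene and the highest in the myeloid gene of the same run. Tmem176b and Tmem176a, on chromosome 6 from 48739047 to 48845948 with Gimap1 and Gimap5, rose together. Tmem176b was at 3.77, 5.19 and 3.61 FPKM in control MEP and at 218, 143 and 78.4 in leukemic MEP (rise 4.72 ± 0.38, adjusted p = 0.000381). On chromosome 3 from 59005419 to 59318446, Gpr171 rose by 4.17 ± 0.46 from 0.627, 1.69 and 1.19 to 51.8, 54.8 and 18.1 FPKM (adjusted p = 0.0011) beside the receptor gene P2ry14 and the Mediator gene Med12l, in whose introns such receptor genes lie, so that reads of overlapping transcripts cannot be told apart. On chromosome 14 from 56082163 to 56262334 the protease genes Mcpt8, Ctsg and Gzmb formed a run, with the values given above.

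Among the lower runs, St6galnac3, 5730460C07Rik, Asb17, Asb17os and Rabggtb lay on chromosome 3 from 153198274 to 153912966. Asb17, an ankyrin and SOCS box gene best known from testis, was at 12.7, 28 and 26.9 FPKM in control MEP and at 0.171, 0.584 and 1.6 in leukemic MEP and fell by 3.72 ± 0.43 (adjusted p = 0.00124). Asb17os is its antisense gene, and the library kit does not mark strand, so reads of the pair cannot be told apart. Plpp1, a lipid phosphatase gene, was at 22, 32.2 and 27.1 and 0.661, 0.485 and 0 FPKM in a run on chromosome 13 from 112521931 to 112867894. It fell by 4.36 ± 0.32 (adjusted p = 0.000278), more than its neighbours Slc38a9, Ddx4 and Il31ra.

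**Figure D4:**
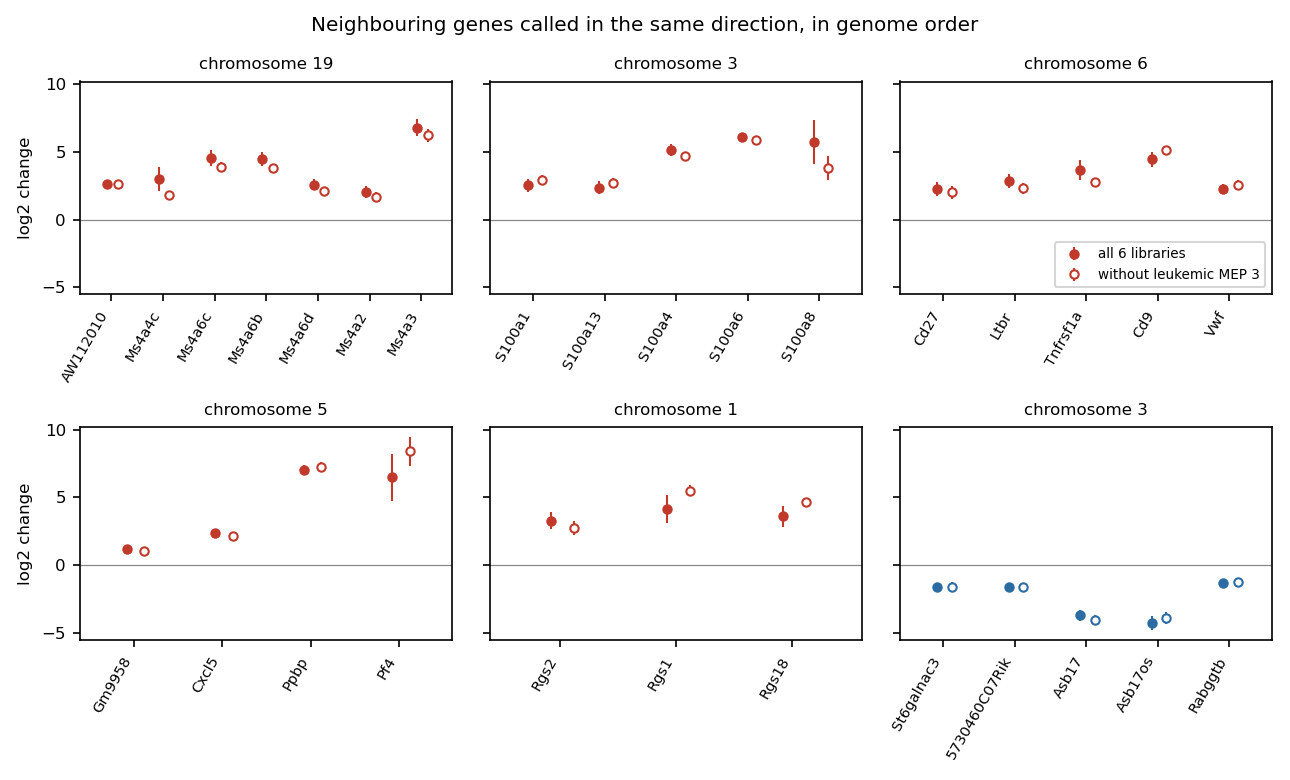
log2 change ± SE (vertical axis) of the genes in 6 runs of neighbours, in genome order along the horizontal axis; filled circles are the fit of all 6 libraries, open circles that without leukemic MEP 3, red runs are higher and blue runs lower in leukemic MEP. Within a run the changes differ in size, from 2.04 for Ms4a2 to 6.78 for Ms4a3 on chromosome 19.

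Leaving out leukemic MEP 3 added 597 higher and 514 lower calls, and Lrrfip2 alone lost its call (adjusted p = 0.0492 with it and 0.0504 without). Ackr1, an atypical chemokine receptor gene, was at 0.927, 1.39 and 1.81 FPKM in control MEP, at 130 and 155 in leukemic MEP 1 and 2, and at 0 in leukemic MEP 3. Eya2, a transcription cofactor gene, was at 0.0779, 1.37 and 0.101 and 30.3, 25.8 and 0.607. The platelet receptor gene Treml1 was at 0.766, 1.92 and 0.598 and 16.9, 17.9 and 0. In these 3 genes leukemic MEP 3 was among or below the controls, and without it they rose by 5.93 ± 0.28, 4.36 ± 0.37 and 3.19 ± 0.32 (adjusted p = 7.8e-07, 1.3e-05 and 4.33e-05). The elastase gene Elane was at 1.75, 48.1 and 11.5 and 52.7, 151 and 7001 FPKM, far highest in leukemic MEP 3. It did not pass with all 6 libraries (adjusted p = 0.0771) and rose by 2.92 ± 0.90 without that library (adjusted p = 0.0312), and also passed without leukemic MEP 1 (adjusted p = 0.0469). S100a9, the partner of S100a8, was at 2.25, 48.3 and 13.6 and 57.9, 169 and 19797 FPKM, missed the threshold with all 6 libraries (adjusted p = 0.0895) and rose by 2.91 ± 0.86 without leukemic MEP 3 (adjusted p = 0.0258). Some alternatives that keep leukemic MEP 3 call such genes too. Array weights called Ackr1, Eya2, Treml1, Elane and S100a9 higher, and voom on recovered reads called these except S100a9.

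Among genes called lower without leukemic MEP 3 but not with all 6 libraries, the cohesin gene Rec8 was at 27.2, 22.6 and 21.3 FPKM in control MEP and at 1.62, 5.95 and 20.4 in leukemic MEP. Sqor, a mitochondrial sulfide oxidase, was at 28.7, 33.3 and 35.4 and 4.17, 7.2 and 46.4. Ifngr2, a chain of the interferon gamma receptor, was at 11.5, 11.2 and 12.4 and 2.73, 2.78 and 25.1. Leukemic MEP 3 was near or above the controls in all 3, and without it Rec8 fell by 2.53 ± 0.38, Sqor fell by 2.36 ± 0.28 and Ifngr2 fell by 1.76 ± 0.27 (adjusted p = 0.000636, 0.000138 and 0.000664). Array weights and voom, with all 6 libraries, also called these 3 lower. The 4 Y-linked genes tested were not called with all 6 libraries and were called lower without leukemic MEP 3. On the X chromosome 29 of 321 tested genes were called higher and 19 lower, and 52 and 31 without leukemic MEP 3. Of all genes tested 11% were called higher and 8.8% lower, and 16.8% and 13.9% without leukemic MEP 3. The X chromosome was thus not above these shares.

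**Figure D5:**
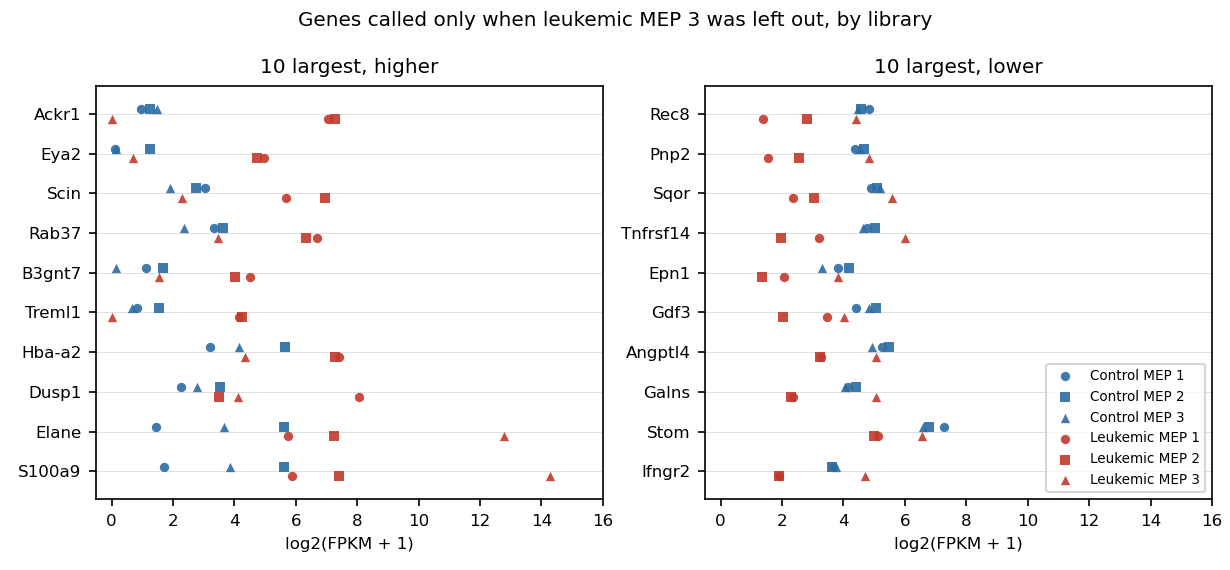
log2(FPKM + 1) (horizontal axis) of the 10 genes with the largest rises and the 10 with the largest falls among those called without leukemic MEP 3 and not with all 6 libraries; blue marks control MEP, red leukemic MEP, and circles, squares and triangles replicates 1, 2 and 3. Leukemic MEP 3 (red triangles) lies with the controls in most of these genes and far above all other libraries in Elane (7001 FPKM) and S100a9.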

How the data were processed

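The libraries were made from sorted cells with Smart-seq2 and Nextera XT after Trizol extraction and sequenced on a HiSeq2500, per the labels' protocols. The submitters' processing notes name CASAVA, bcl2fastq, STAR 2.5.3a, DESeq2 1.18.1 and mm10. No source used here names the counter or the gene annotation. The authors deposited FPKM values per gene for the 12 libraries; only the 6 MEP columns enter the main tests.

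Genes at 1 FPKM or more in at least 3 of the 6 libraries were tested on log2(FPKM + 1) with limma 3.58.1 (R 4.3.3, trended prior variance, 2 groups, Benjamini-Hochberg adjustment over all genes tested, threshold 0.05), checked on simulated data. Python 3.11.15, numpy 2.4.6, pandas 2.3.3 and matplotlib 3.10.9 made the tables and figures. A value of 1 read was sought for each gene that made its FPKM values whole multiples (tolerance 0.02 reads). It was found for 100% of the 16728 genes above 0 and gave the depths. A gene read in a single library passes by construction, so the 100% does not check the depths. Voom on these reads was an alternative chosen after seeing the data. An exact permutation test of 3 against 3 cannot go below 0.1 and was not used. Entrez identifiers matched RefSeq for 24061 of 24107 genes.

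The members, the 48 gene lists and the alternatives were chosen with earlier results of these data known. Genes were named by rule: Prdm16; the 15 largest rises and 15 largest falls called in the same direction with all 6 libraries and without leukemic MEP 3, with no overlap and 10 FPKM or more on average in the higher group; the 10 largest of each direction called in only 1 of these fits; per list the 3 called genes with the smallest p, up to 2 called in the other direction and the 2 highest not called; and members of runs of neighbours. Unnamed, Y-linked and receptor segment genes were left out. Kit, Klf1, Gata2, Car1 and Tfrc are MEP markers, and other genes outside the rule were chosen after their values were seen. Samples with the same replicate number did not deviate together (r = -0.198, -0.0610 and -0.197), so the numbers were not taken as pairs.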

Additional observations from a re-analysis of the deposited data

How the results depend on the processing

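The limits are the 3 samples in each group, the depth of leukemic MEP 3, and the split of the sex-linked genes, which matches the groups once leukemic MEP 3 is left out. Leaving out 1 library at a time gave 717 to 3117 called genes, 442 to 1709 higher and 275 to 1408 lower; fewer samples were tested in each. The counts stayed within 1.5 times of 2007 with a pseudocount of 0.1 (1943) or 5 (1832), no filter (1448), a filter at 5 FPKM (1535), equal totals (1782), quantile normalization (1787), a robust fit with no trend (1964) and voom on recovered reads (2713). Equal totals and quantile normalization moved the median change of all genes to -0.05 and -0.12. A fit of all 4 groups called 1448 genes lower, and without leukemic MEP 3 called 3021 genes, 1418 of them lower. Array weights called 5653 genes, 2840 higher and 2813 lower, and turned Icam4, a red cell adhesion gene, from -0.44 (adjusted p = 0.737) to 0.76 (adjusted p = 0.0303). With the replicate block 1478 genes were called, 920 higher and 558 lower. Without leukemic MEP 3 the block gave 2165 calls, 876 of them lower, and the filter at 5 FPKM gave 1049 higher; the other alternatives stayed within 1.5 times of 3117. The 429 genes named by rule include genes that were not called and so had no call to lose. Among the called ones 134, 115 and 150 lost their calls without control MEP 1, 2 and 3. Calls lost were 66 and 43 without leukemic MEP 1 and 2, 77 without a filter and 53 with the block. The cause of these shifts was not tested.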

Other observations

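Lysosome and autophagy genes, whose products break down cargo in granules and spent mitochondria, were tested for 32 of 33. Of these 4 were called higher and 0 lower (median 0.46), and 8 and 2 without leukemic MEP 3, where 11% and 16.8% of all genes tested were called higher. The higher count was 1 and 2 without control MEP 1 and 3. The lysosomal tetraspanin gene Cd63 was at 14.6, 31.5 and 23.5 FPKM in control MEP and at 193, 133 and 192 in leukemic MEP, with no overlap, and rose by 2.89 ± 0.33 (limma adjusted p = 0.00123).

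The immediate early genes Fos, Dusp1 and Jun, which respond to growth factors and to handling of cells, differed among the leukemic libraries and were chosen after their values were seen. Fos was at 3.44, 14.6 and 4.0 FPKM in control MEP and at 202, 2.4 and 32 in leukemic MEP. Dusp1, a MAP kinase phosphatase gene, was at 3.81, 10.6 and 5.83 and 267, 10.3 and 16.4, and Jun at 16.5, 16.9 and 7.76 and 84.7, 5.41 and 21.5. Leukemic MEP 1 was the highest library in all 3. In the list of RAS, MAP kinase and immediate early genes 8 of 25 tested were called higher and 0 lower, and 12 and 2 without leukemic MEP 3. Rises numbered 1, 2, 1 and 3 without control MEP 1, 2 and 3 and leukemic MEP 1, and 0 of the 8 kept their calls in all 6 fits that left out a library.

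Control MEP 2 was the highest control in S100a8 (160 FPKM against 10.7 and 69.1), Pf4 (102 against 1.83 and 7.60) and Elane (48.1 against 1.75 and 11.5). These genes were chosen after their values were seen.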
